A study of Mus musculus with 16 samples.

Results

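The microRNAs of Ire1a and Xbp1 compound-deficient cDC1s were compared with those of Xbp1-deficient cDC1s, 4 libraries against 4, so 8 of the 16 small RNA libraries of the series. The members were chosen by genotype label alone, and every mature microRNA of the count table was included, 853 in all. Conventional type 1 dendritic cells (cDC1s), the subset specialised in presenting antigen of other cells to CD8 T cells, were sorted from mouse spleen (strain C57BL6), between 5000 and 50000 cells a sample. The other 8 libraries were wild type, 4 from each mouse line, and are used here to show how far the lines differ without either deficiency. Both deficient groups lack Xbp1. The labels do not state the alleles, the promoter or cell type in which the genes were deleted, the age or sex of the mice, or whether each replicate is its own mouse. The p-values therefore describe variation among these libraries, and that variation may be technical. The cDC1 markers and the deleted genes are messenger RNAs and are not in a table of mature microRNAs, so neither cell identity nor genotype was checked here.

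IRE1, encoded by Ire1a (also called Ern1), is a sensor of unfolded protein in the endoplasmic reticulum that carries a ribonuclease on its cytosolic side. The ribonuclease cuts an intron from Xbp1 mRNA, which is needed to make the active transcription factor, and it can also cleave other RNAs, a process called regulated IRE1-dependent decay, for which some microRNA precursors have been proposed as substrates. In cells that lack only XBP1 the ribonuclease is still encoded. Cells that lack both genes have neither the transcription factor nor, by design, the sensor. The comparison therefore asks what changes when IRE1 is lost on top of XBP1. The 2 deficient groups come from different mouse lines, so loss of IRE1 and any other difference between the lines cannot be told apart in this contrast alone. All values are relative to the library, and in these bulk samples fewer cells of a kind and less RNA per cell cannot be told apart.

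The table names microRNAs by miRBase identifier alone, and none of the 853 identifiers was paired with a name or sequence in the tables used here. No sequence or family is therefore given, and the text names the 2 microRNAs of smallest p in each direction. Other identifiers were singled out after their values were seen, and this is said where they appear. Levels are CPM (counts scaled to a common library size with TMM factors, a scaling that sets the bulk of microRNAs equal between libraries). Differences are log2 fold changes of compound-deficient over Xbp1-deficient cells from edgeR's quasi-likelihood fit of all 16 libraries. A microRNA passed when its Benjamini-Hochberg adjusted p lay under 0.05.

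The 2 groups differed in depth. Total counts were 978134, 381259, 561610 and 175165 in compound-deficient replicates 1 to 4 and 1106247, 969371, 1403393 and 783372 in Xbp1-deficient replicates 1 to 4. Only compound-deficient replicate 1 fell within the range of the Xbp1-deficient totals. The exact two-sided permutation p for the difference in total was 0.0857 (adjusted over 3 library measures, 0.171), where 4 against 4 libraries can give no p below 0.0286. After thinning all libraries to 175165 counts, 319 ± 18.4 microRNAs (SD, n = 4) were detected in compound-deficient and 324.25 ± 10.2 in Xbp1-deficient libraries, with an exact permutation p of 0.657 (adjusted 0.657).

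Of 255 microRNAs with enough counts to test, 19 passed, 13 higher and 6 lower in compound-deficient cells. These are 7.45%, 5.1% and 2.35% of all tested, and 44 of the 255 (17.3%) had an unadjusted p under 0.05. The higher group spanned log2 fold changes of 0.51 to 3.04 with a median of 0.64, and the lower group spanned −0.70 to −0.36 with a median of −0.62, beside a median of 0.13 over all 255. In size, 16 of the 19 lay under 1, at most 0.84, and the other 3 were all higher and are described with library depth below.

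The most abundant microRNA of these cells, MIMAT0000525, was lower in compound-deficient cells. It stood at 252979, 261990, 205135 and 172737 CPM in compound-deficient replicates 1 to 4 and at 371547, 337392, 382353 and 296506 CPM in Xbp1-deficient replicates 1 to 4. Every compound-deficient library lay below every Xbp1-deficient library. The log2 fold change was −0.64 (SE 0.15, 95% interval −0.95 to −0.32, adjusted p 0.0180). As a share of raw counts, which needs no scaling factor, it took 18.7% to 24.7% of a compound-deficient library and 28.2% to 34.8% of an Xbp1-deficient one. The wild-type shares, 19.7% to 25.6% in the compound line and 21.4% to 28.5% in the Xbp1 line, overlapped the compound-deficient range, and the highest library of the Xbp1 line also lay within the Xbp1-deficient range. Against its own wild type the log2 fold change was 0.05 (SE 0.15) in compound-deficient and 0.49 (SE 0.15, adjusted p 0.0883) in Xbp1-deficient cells. These comparisons share the deficient libraries with the one above, so they are not separate support.

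MIMAT0000210, the runner-up in abundance, was higher. It stood at 153782, 159709, 195323 and 169386 CPM in compound-deficient replicates 1 to 4 and at 99638, 100833, 129510 and 116626 CPM in Xbp1-deficient replicates 1 to 4. The groups did not overlap, and compound-deficient replicate 3 was the highest of all 8. The log2 fold change was 0.60 (SE 0.13, interval 0.33 to 0.87, adjusted p 0.0152). The wild-type means lay between those of the deficient groups, at 124128 ± 3069 CPM (SD, n = 4) for the Xbp1 line and 120118 ± 22889 CPM for the compound line. The log2 difference between the wild types was −0.05 (interval −0.32 to 0.22).

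The ratio of these abundant microRNAs within a library depends on no scaling. There were 0.608, 0.610, 0.952 and 0.981 counts of MIMAT0000210 per count of MIMAT0000525 in compound-deficient replicates 1 to 4. In Xbp1-deficient replicates 1 to 4 the ratio was 0.268, 0.299, 0.339 and 0.393. The compound-deficient libraries fell into a lower and a higher pair, both above the Xbp1-deficient range. Wild-type libraries of the compound line gave 0.448 to 0.773 and those of the Xbp1 line 0.409 to 0.600, so the Xbp1-deficient libraries lay below all wild-type libraries. The pair was picked for its opposite change, and no test is given.

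MIMAT0000133 was lower in compound-deficient cells and has a moderate level. It stood at 1305, 1311, 1113 and 1807 CPM in compound-deficient replicates 1 to 4 and at 2210, 2403, 2147 and 2010 CPM in Xbp1-deficient replicates 1 to 4. Compound-deficient replicate 4, the shallowest library, came nearest to the Xbp1-deficient range without reaching it. The log2 fold change was −0.67 (SE 0.16, interval −1.0 to −0.34, adjusted p 0.0180). The wild types differed in the same direction, with 2128 ± 398 CPM (SD, n = 4) for the compound line against 2780 ± 255 CPM for the Xbp1 line, a log2 difference of −0.38 (interval −0.71 to −0.06, adjusted p 0.366). The difference between deficient genotypes exceeded that between wild types by −0.28 (interval −0.75 to 0.18, adjusted p 0.809). A part beyond the line difference was thus not shown for MIMAT0000133, and no microRNA passed that test (0 of 255).

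MIMAT0003459 had the smallest p and the largest fold of the 19. Its level was 78.4, 314, 80.8 and 618 CPM in compound-deficient replicates 1 to 4 and 22.2, 44.7, 24.1 and 37.5 CPM in Xbp1-deficient replicates 1 to 4. The compound-deficient values spread over a far wider range, and the highest were in the 2 shallowest libraries. The fitted log2 fold change was 3.04 (SE 0.64, interval 1.70 to 4.37, adjusted p 0.0152). Wild-type levels were 173, 60.4, 61.3 and 76.8 CPM in compound-line replicates 1 to 4. In Xbp1-line replicates 4, 5, 6 and 8 they were 23.6, 26.6, 20.8 and 94.5 CPM. The wild types thus differed in the same direction, by 1.24 on the log2 scale (unadjusted edgeR p 0.0657).

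**Figure D1:**
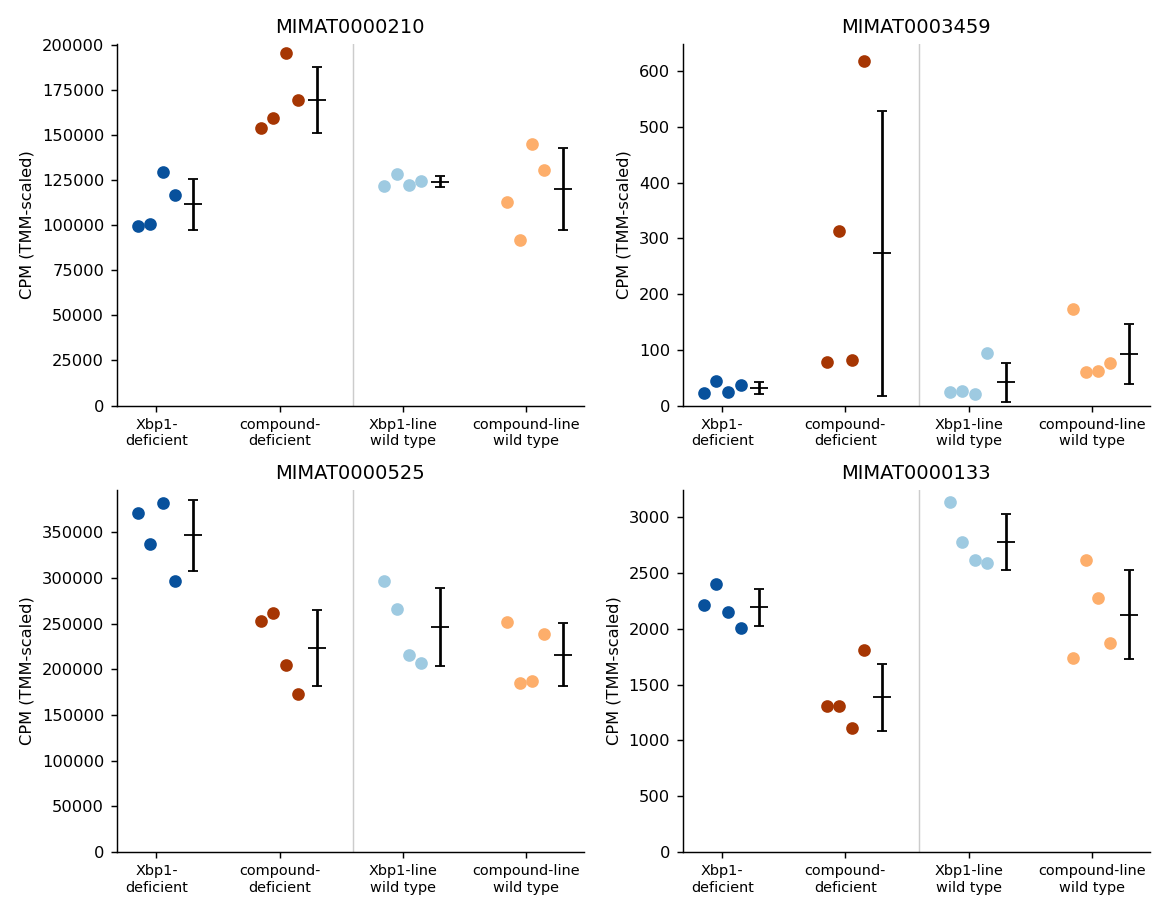
CPM (linear axes from 0) of 4 microRNAs, the 2 of smallest p in each direction, in each library, by group; points are libraries in replicate order and the bar beside them is the mean ± SD (n = 4). MIMAT0000210 is higher and MIMAT0000525 and MIMAT0000133 are lower in all 4 compound-deficient than in all 4 Xbp1-deficient libraries, while MIMAT0003459 spreads from 78.4 to 618 CPM in compound-deficient cells.

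MIMAT0004324, singled out after its values were seen, was among the 3 of smallest p and had wild types at nearly the same level. It stood at 868, 747, 1040 and 682 CPM in compound-deficient replicates 1 to 4 and at 398, 464, 521 and 482 CPM in Xbp1-deficient replicates 1 to 4. The groups did not overlap, and wild-type levels were 473 ± 93.0 CPM (SD, n = 4) for the compound line and 476 ± 77.9 CPM for the Xbp1 line. The log2 fold change between the deficient genotypes was 0.84 (SE 0.18, interval 0.46 to 1.22, adjusted p 0.0152). It lay 0.85 above the wild-type difference (interval 0.31 to 1.38, adjusted p 0.208), which did not pass.

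Calls were rarest where the measurement was least precise. Among the 16 microRNAs with a mean of at least 10000 CPM over the 8 deficient libraries 4 passed, 1 higher and 3 lower. Between 1000 and 10000 CPM 5 of 40 passed, 3 higher and 2 lower, and between 100 and 1000 CPM 9 of 58, all higher. Under 100 CPM 1 of 141 passed, MIMAT0000386, which was lower (−0.70, SE 0.20, adjusted p 0.0458) and is named after its value was seen. The median standard error rose from 0.14 in the most abundant class to 0.52 in the least abundant. For 118 of the 255 the 95% interval lay wholly within a log2 fold change of −1 to 1, which held for 16 of 16 in the most abundant class and for 25 of 141 under 100 CPM. A 2-fold difference therefore lay outside the interval throughout the most abundant class and inside it for most microRNAs under 100 CPM.

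**Figure D2:**
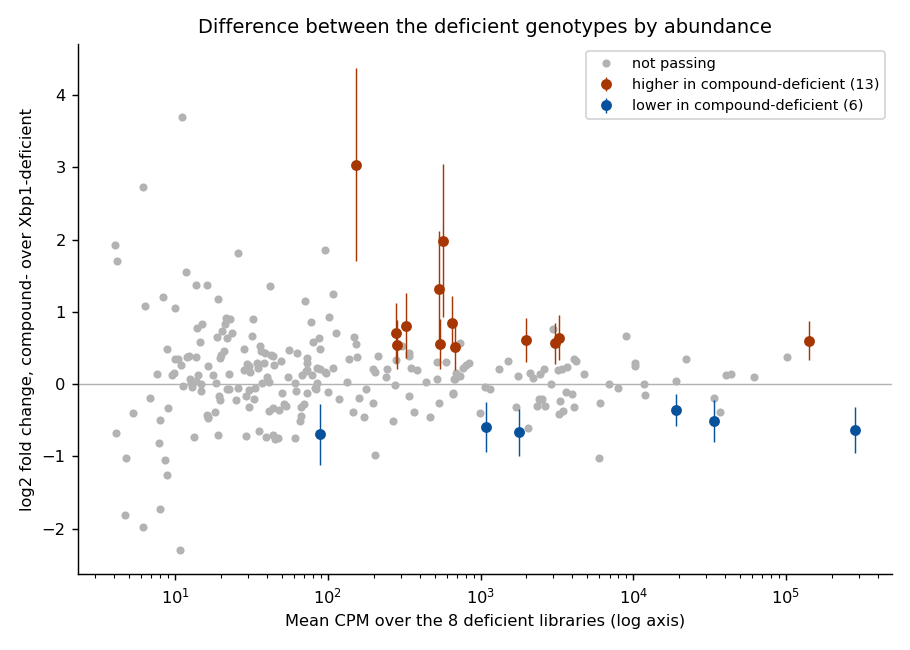
Log2 fold change of compound-deficient over Xbp1-deficient cells (vertical) against mean CPM over the 8 deficient libraries (log axis) for 255 microRNAs; coloured points passed and carry 95% intervals. The 13 higher and 6 lower microRNAs lie mostly above 100 CPM, where 18 of the 19 are found.

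Among the 10 most abundant microRNAs, which held a mean of 76.8% of the counts of the 8 libraries, 3 passed: MIMAT0000210 higher, and MIMAT0000525 and MIMAT0000154 lower, the last at −0.51 (SE 0.14, edgeR adjusted p 0.0335) and named after its value was seen. The other 7 had log2 fold changes between −0.39 and 0.38, intervals reaching at most from −0.68 to 0.66, and adjusted p of 0.0939 or more. The 6 lower microRNAs together took 38.7% ± 3.22 of the counts (SD, n = 4) in Xbp1-deficient and 26.5% ± 2.86 in compound-deficient libraries. The 13 higher took 11.4% ± 1.07 and 18.3% ± 2.36. MIMAT0000525 and MIMAT0000210 made up most of these shares, with means of 32.6% and 21.8% for the former and 10.5% and 16.7% for the latter in the same order of groups. These sums describe microRNAs picked on the same counts.

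Groups that did not overlap were found for 14 of the 19, beside 30 of all 255 (11.8%). The calls rest on the same libraries, which raises the share among the 19, so it is not separate support. Over all 255, 18 lay wholly lower (7.06%) and 12 wholly higher (4.71%) in compound-deficient libraries, whereas the calls were mostly higher. Between the wild types 11 of 255 did not overlap (4.31%), 6 higher (2.35%) and 5 lower (1.96%) in the compound line. All 6 called lower were among the non-overlapping, and 8 of the 13 called higher were.

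The balance of directions moved with the library scaling. Scaling by total counts alone gave 14 higher and 1 lower. DESeq2 size factors gave 12 of each, and the upper quartile gave 4 higher and 22 lower. Relative to TMM, total counts, DESeq2 size factors and the upper quartile shifted the median of all 255 by 0.06, −0.05 and −0.24 on the log2 scale. MIMAT0000210, MIMAT0003459 and MIMAT0000525 passed in the same direction under all 3, and MIMAT0000210 ranged from 0.36 with upper-quartile scaling to 0.68 with total counts. MIMAT0000133 kept its direction and missed the threshold with total counts alone (−0.59, edgeR adjusted p 0.0676).

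The wild types of the lines served as a measure of line difference, with no library shared with the deficient groups. No microRNA passed between them in edgeR (0% called, 24 of 255 or 9.41% at an unadjusted p under 0.05, smallest adjusted p 0.0942), while DESeq2 called 4, limma with voom weights 0 and edgeR without the filter 14. For all 6 microRNAs called lower in compound-deficient cells the wild-type difference was negative too, between −0.38 and −0.04. For the 13 called higher it was positive in 4 and negative in 9, with a median of −0.01. Over all 255 the 2 differences had the same sign in 148. For 18 of the 19 the difference between deficient genotypes was larger in size than that between wild types, beside 155 of all 255. The 19 were chosen for a large difference between deficient genotypes, which raises this share. The wild-type difference had the same sign and more than 50% of the size in 92 of the 255 and in 3 of the 19: MIMAT0000133, and MIMAT0003493 and MIMAT0031395, named after their values were seen.

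Across the 255 microRNAs, which are not independent, the correlation of the 2 differences was 0.34 (Pearson) and 0.29 (Spearman), given as a description. The points share one fit, and in both contrasts the compound line had the lower mean depth, 518607 ± 252471 counts (SD, n = 4) in its wild type against 825763 ± 322500 in the Xbp1 line.

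**Figure D3:**
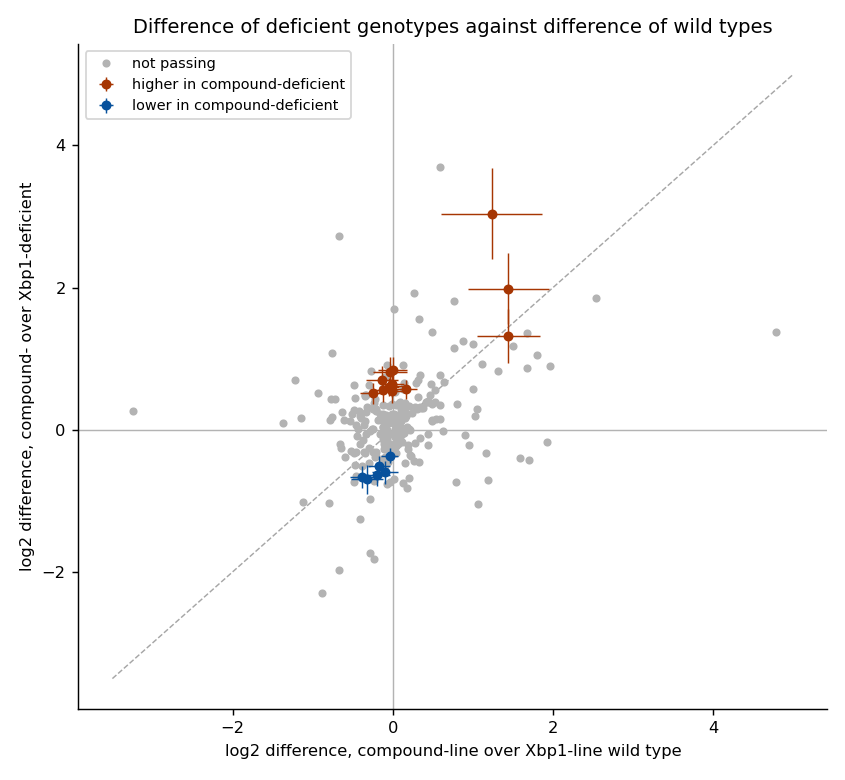
Log2 difference between the deficient genotypes (vertical) against that between the wild types (horizontal), compound line over Xbp1 line in both, for 255 microRNAs; bars on coloured points are standard errors and the dashed line marks equal differences. Most called microRNAs sit near 0 on the horizontal axis, and 3 called higher sit to the right of 1.

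A direct test of whether the deficient genotypes differed by more than the wild types passed for 0 of 255 in edgeR (0%), with 26 (10.2%) at an unadjusted p under 0.05 and a smallest adjusted p of 0.208. DESeq2 called 5, limma with voom weights 0, and edgeR 2 without the filter and 3 with upper-quartile scaling. Among the 19 called between the deficient genotypes, 11 had an unadjusted p under 0.05 in this test. It uses the same deficient libraries, so that share is raised by the choice. MIMAT0000210 gave a difference of 0.65 (interval 0.27 to 1.03, adjusted p 0.208) and MIMAT0000525 one of −0.45 (interval −0.89 to 0.00, adjusted p 0.474). MIMAT0003459 gave 1.8 (interval −0.04 to 3.64, adjusted p 0.484).

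Counts followed library depth for 16 of the called microRNAs and did not for the other 3. In log2 units, a microRNA that holds a constant share of a library gains 1 in count for each gain of 1 in library total, that is, has a slope of 1. Within groups over all 16 libraries, so without use of any difference between groups, the median slope of the 255 was 0.98 (quartiles 0.78 and 1.11). Slopes were taken on the log2 of the count plus 1. The 6 called lower had slopes of 0.93 to 1.13, and 10 of the 13 called higher 0.86 to 1.08. The remaining 3 called higher had slopes near 0: −0.21 for MIMAT0003459, −0.16 for MIMAT0031395 and 0.11 for MIMAT0003493. These are the 3 with the largest log2 fold changes. In the 8 wild-type libraries alone, which take no part in the contrast, their slopes were 0.00, 0.06 and 0.36, beside a median of 1.02 over the 255.

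The raw counts show this directly. MIMAT0003493 had 239, 290, 280 and 278 counts in compound-deficient replicates 1 to 4 and 316, 247, 292 and 303 in Xbp1-deficient replicates 1 to 4, in libraries whose totals spanned 8.01-fold. The raw counts of the groups overlapped, and the CPM values were 761 ± 522 against 301 ± 76.2 (SD, n = 4). Its log2 fold change was 1.32 (SE 0.38, adjusted p 0.0458), beside 1.44 (interval 0.62 to 2.27, adjusted p 0.11) between the wild types.

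MIMAT0031395 had 223, 316, 293 and 373 counts in compound-deficient replicates 1 to 4 and 236, 165, 170 and 274 in Xbp1-deficient replicates 1 to 4. The deepest compound-deficient library had the lowest count of its group. Its log2 fold change was 1.98 (SE 0.50, adjusted p 0.0262), beside 1.44 (unadjusted edgeR p 0.0105) between the wild types. The CPM values of the deficient groups overlapped. MIMAT0003459 had 73, 113, 44 and 117 counts in compound-deficient and 23, 43, 30 and 28 in Xbp1-deficient replicates 1 to 4, so that for this microRNA alone among the 3 the raw counts did not overlap either.

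**Figure D4:**
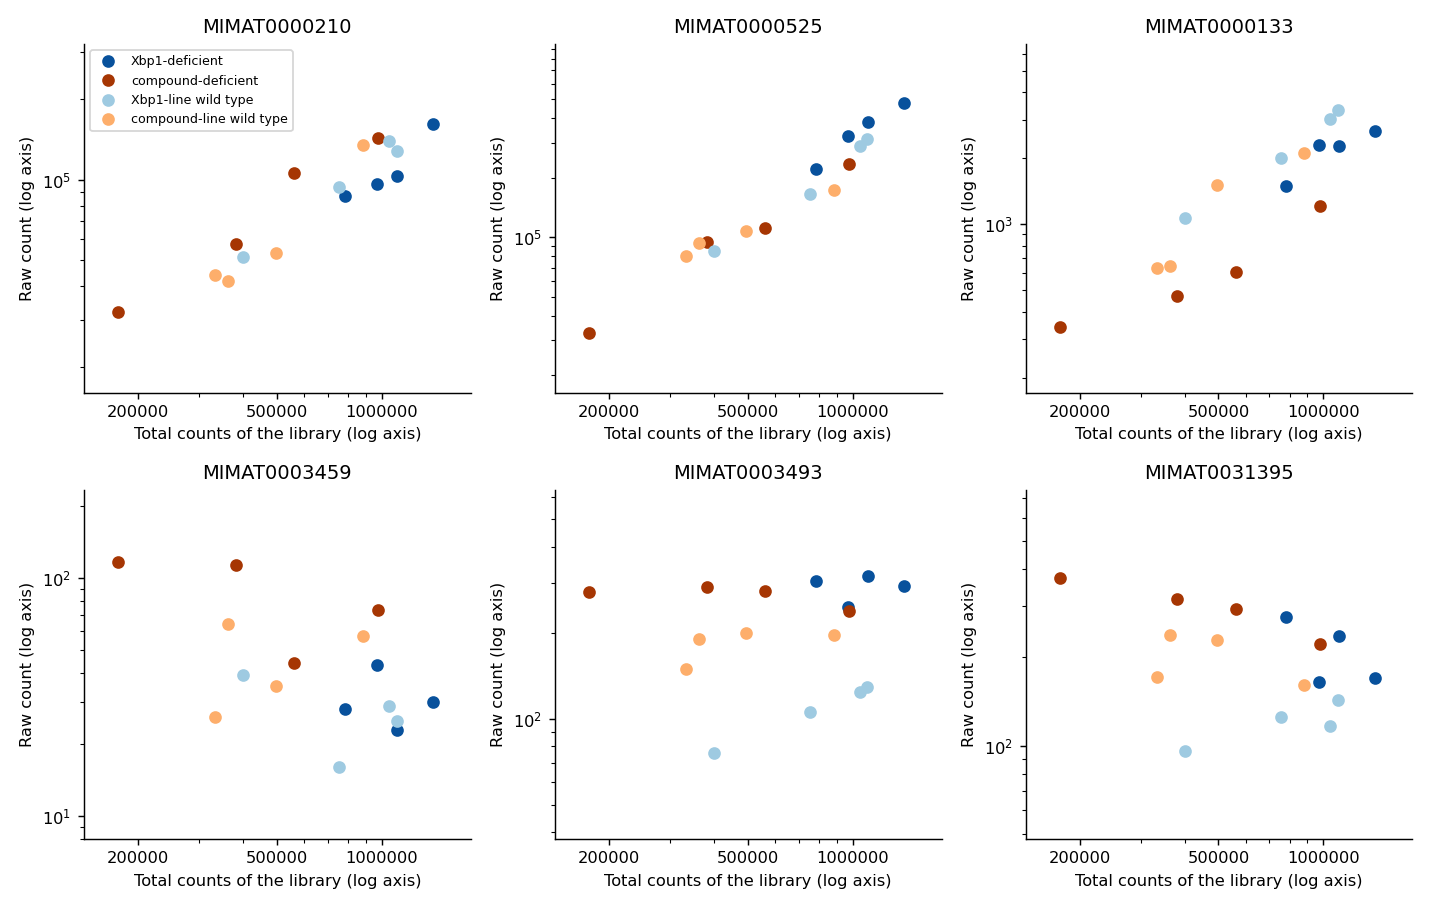
Raw count against the total count of the library (both log axes) for 6 called microRNAs in all 16 libraries, coloured by group. Counts of MIMAT0000210, MIMAT0000525 and MIMAT0000133 climb with the total, whereas those of MIMAT0003459, MIMAT0003493 and MIMAT0031395 do not.

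When log2 library total was added to the fit as a covariate, these 3 had log2 fold changes of 1.16 (adjusted p 0.184), 0.27 (adjusted p 0.707) and 0.02 (adjusted p 0.992) for MIMAT0003459, MIMAT0031395 and MIMAT0003493 in edgeR. In that fit 3 microRNAs passed: MIMAT0000210 at 0.65 (SE 0.16, adjusted p 0.0443), MIMAT0004324 at 1.01 (SE 0.20, adjusted p 0.0196), and MIMAT0000127 at −1.89 (SE 0.43, adjusted p 0.0358). The last did not pass without the covariate (−0.76, adjusted p 0.472) and was named after its value was seen. MIMAT0000525 kept a value of −0.47 in that fit (adjusted p 0.201). For MIMAT0000133 it was −0.71 (adjusted p 0.0759). The fit kept a mean for each group, so its slope on depth came from differences between libraries of the same group. The deficient groups differed in depth, so the log2 fold changes of this fit rest on that slope holding between groups. Whether it does was not tested.

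Compound-deficient replicate 1, was the library of matching depth. It is also 1 of the 4 libraries behind the calls, so the counts that follow describe the called microRNAs and do not support the calls. For 16 of the 19 called microRNAs its CPM lay outside the range of the 4 Xbp1-deficient libraries in the direction of the call, for 10 of 13 higher and 6 of 6 lower. Over all 255 it lay outside that range in the direction of the fitted difference for 113, 44.3%, and in either direction for 131, 51.4%. MIMAT0003493 and MIMAT0031395 were among the 3 inside the range, at 257 CPM (range 235 to 406) and 240 CPM (range 137 to 367). The other was MIMAT0000379, also called higher and named after its value was seen, at 2137 CPM below an upper end of 2140.

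The number that passed depended on single libraries. Without Xbp1-deficient replicate 1 or replicate 2 edgeR called 0, with 38 and 42 at an unadjusted p under 0.05. It called 1 without compound-deficient replicate 2 or replicate 3, 7 without compound-deficient replicate 4 and 9 without Xbp1-deficient replicate 3. The count was 20 and 21 without compound-deficient replicate 1 and Xbp1-deficient replicate 4. None of the 19 passed in all 8 of these fits. Of those described above, MIMAT0003459 passed in 5, and MIMAT0000210, MIMAT0000525, MIMAT0000133 and MIMAT0004324 in 4 each. The median over the 19 was 3 of 8, and 4 passed in 0: MIMAT0000386, MIMAT0000647, MIMAT0000660 and MIMAT0004187, the last 3 named after their values were seen. No direction was reversed in any of the 8. Across these fits the log2 fold change ranged from 0.52 to 0.65 for MIMAT0000210, −0.79 to −0.53 for MIMAT0000525, −0.82 to −0.58 for MIMAT0000133, 0.72 to 0.93 for MIMAT0004324 and 2.27 to 3.36 for MIMAT0003459. Without compound-deficient replicate 4, the shallowest library, MIMAT0031395 was at 1.28 (adjusted p 0.117) and MIMAT0003493 at 0.80 (adjusted p 0.252), and each passed in 2 of the 8 fits.

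**Figure D5:**
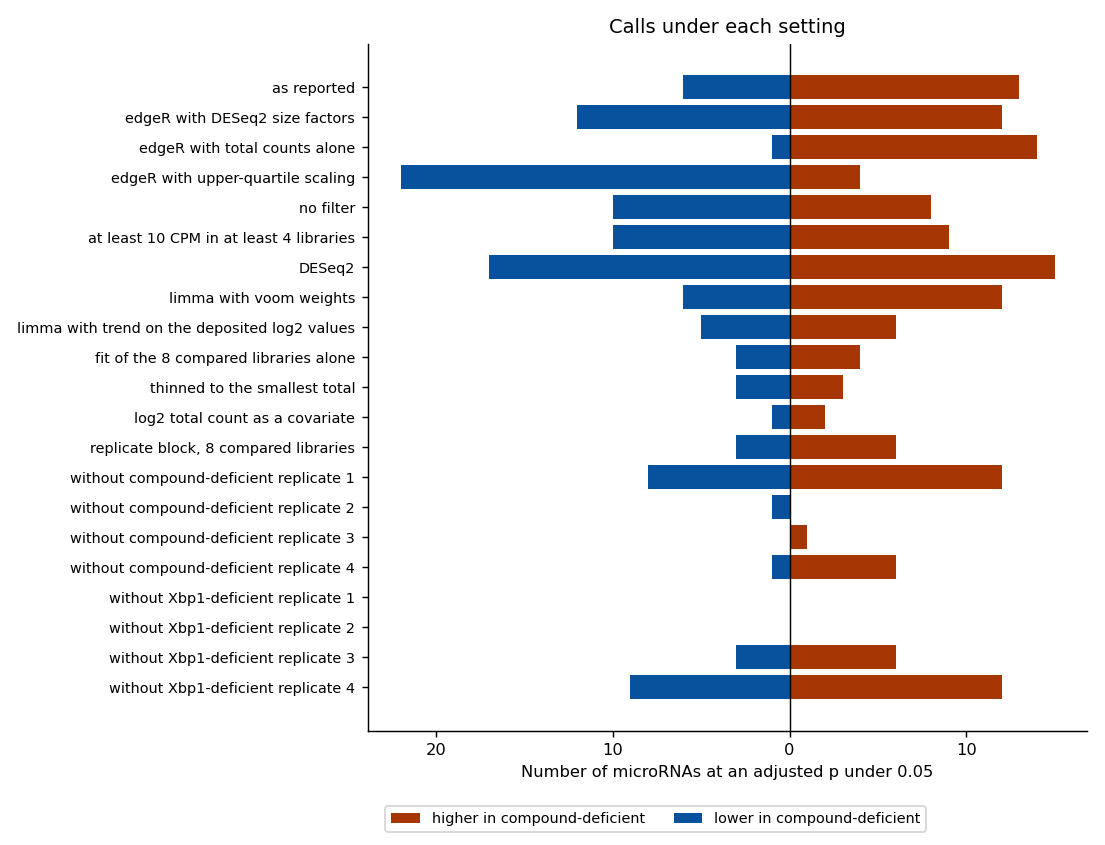
Number of microRNAs at an adjusted p under 0.05 (horizontal axis), higher to the right and lower to the left of 0, as reported and under each other setting. The total runs from 0 without Xbp1-deficient replicate 1 or 2 to 32 with DESeq2, and the split of directions turns from 14 higher and 1 lower with total counts alone to 4 higher and 22 lower with upper-quartile scaling.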

How the data were processed

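Small RNA of sorted splenic cDC1s was sequenced in 16 samples. Per the submitters' processing notes, the tools were Bowtie 1.1.2, cutadapt 1.8.1, limma 3.42.2 and FastQC 0.11.3, with mm10 and GRCm38 as builds. No roles are stated. The authors deposited raw counts of 853 mature microRNAs and log2 values of 473. From the values, the deposited log2 values are log2 CPM on TMM-scaled library sizes. How reads with several matches were counted is not given in the sources used here. Near-identical microRNAs may share reads, and counts may include PCR copies.

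Groups and replicate numbers come from the sample descriptions. The test was edgeR 4.0.16 (R 4.3.3) on raw counts: TMM scaling, filterByExpr (count minimum 10, leaving 255 microRNAs, which held 99.9% of the counts in the library where they held least), 4 group means, no block, two-sided quasi-likelihood F tests, Benjamini-Hochberg adjustment over the 255. Intervals are 95%. The common biological coefficient of variation was 31.2%. Replicates of the deficient groups differed by more than counting noise: the smallest chi-square over its degrees of freedom was 18.1 in 12 pairs. Alternatives included DESeq2 1.42.0 and limma 3.58.1. Fits that changed the libraries or covariates kept the same 255 microRNAs, thinning filtered anew. The script was tested on simulated counts.

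The comparison, lists, alternatives and naming rule were chosen with earlier results of these data known. The naming rule covered every called microRNA, the next by p up to 20, the 10 most abundant, and those sharing a seed, hairpin or list. It was reduced to 2 a direction, by smallest p, because 11 reference tables paired 0 of 853 identifiers with a name. For the same reason 24 lists (microRNA families, reported IRE1 substrates, markers of other cells), arm ratios and sequence features were not analysed.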

Additional observations from a re-analysis of the deposited data

Results flagged for a closer look

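In compound-deficient replicate 4, the shallowest library, the 10 most abundant microRNAs took 74.8% of the counts, against 76.5% to 76.8% in the other 3 libraries of the group. The gap to the nearest was 0.840 of the range, above Dixon's 95% critical value for 4 samples. It was the only one found among 20 groups of values (7 microRNAs and 3 library measures in 2 deficient groups), where chance flags about 1 in 20.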

How the results depend on the processing

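All directions of MIMAT0000210, MIMAT0003459, MIMAT0000525 and MIMAT0000133 were the same under every alternative run. The number called, 19 (13 higher, 6 lower), was 32 with DESeq2 (17 lower), 11 with limma on the deposited log2 values (6 higher), 7 in a fit of the 8 compared libraries (4 higher, 3 lower), 6 after thinning (3 and 3) and 3 with the depth covariate (2 and 1). The number higher was 8 without the filter and 4 with upper-quartile scaling, and the number lower was 12 with DESeq2 size factors, 1 with total counts alone, 22 with upper-quartile scaling, 10 without the filter and 10 with a minimum of 10 CPM in 4 libraries. With 1 library left out, 0 to 21 were called, 0 to 12 higher and 0 to 9 lower. DESeq2 called all 19 again, limma with voom weights 16 of them, thinning 6 and the covariate 2. Between the wild types, where edgeR called 0, DESeq2 called 4 and edgeR without the filter 14. For the difference of changes, also 0, DESeq2 called 5, and edgeR 2 without the filter and 3 with upper-quartile scaling. The cause of these shifts was not tested.

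Whether replicate numbers pair the libraries of the 2 groups was not settled. Deviations of same-numbered libraries correlated between −0.07 and 0.10 over 4 pairs, and 1 of 4 compound-deficient libraries correlated best with its own number. With the replicate block in a fit of the 8 libraries, 9 were called, 6 higher and 3 lower, against 7 without it. Standard errors without and with the block were 0.122 and 0.078 for MIMAT0000210 and 0.143 and 0.095 for MIMAT0000525. They were 0.616 and 0.380 for MIMAT0003459, and 0.158 and 0.170 for MIMAT0000133. Intervals were wide for microRNAs under 100 CPM, with a median half-width of 1.08, against 0.30 for those of at least 10000 CPM. The parts of depth and of replicate variation in this width were not tested.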

Other observations

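Counts that did not follow the library total were not limited to called microRNAs. Of the 255 tested, 37 (14.5%) had a slope within groups, taken as above, under 0.5, and 3 of these were called. The addition before the log2 lowers slopes where counts are very low. Count levels of the uncalled ones are not given here. Of the 37, 29 were higher in compound-deficient than in Xbp1-deficient cells. The median over the 37 was 0.58 (log2), beside 0.13 over all 255. Between the wild types 26 of the 37 were higher in the compound line, with a median of 0.76, beside 0.003 over all 255. In both contrasts the compound line had the shallower libraries. A count that does not rise with the total gives a higher CPM in a shallower library. The choice of the 37 by slope thus favours higher values in the compound line, and these counts are a description. The part of depth in these differences was not tested. The slopes use the deficient libraries too, though only deviations within groups.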
